A study of Homo sapiens with 12 samples.

Results

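The genes described are 7 subunits of the transcription factor AP-1 (FOS, FOSB, FOSL1, FOSL2, JUN, JUNB and JUND) and 3 immediate early genes (ATF3, EGR1 and DUSP1). They were taken as every probe set annotated to exactly 1 of these symbols, which gave 19 of the 22277 probe sets of the array for all 10 genes. FOSL2 and JUND had 3 probe sets each, JUN had 4, EGR1 and DUSP1 had 2 each, and the other genes had 1. Expression was measured on 12 arrays of HCC827, an established lung adenocarcinoma line with an activating EGFR mutation. The 4 groups of 3 arrays were ERC4, an erlotinib-resistant derivative (erlotinib inhibits the EGFR kinase), parental HCC827, Esh9-1, which carries a lentiviral shRNA against EGFR, and HCC827NT, which carries a lentiviral non-target shRNA. All cells grew in RPMI with 5% FBS and antibiotics and were harvested in exponential growth. Esh9-1 and HCC827NT also received puromycin at 5 ug/ml. The titles and the cell type field set ERC4 apart as the resistant line and name the HCC827 arrays parental, but another field of the labels marks all 12 samples, parental and HCC827NT included, as resistant to EGFR inhibitors. The labels thus do not settle that the parental cells were sensitive, and ERC4 minus parental is read as a difference between these lines. The labels name neither a stimulus nor a drug in the medium of ERC4. ERC4 is a single resistant line and Esh9-1 a single shRNA, so what belongs to the clone or to the shRNA sequence cannot be told apart from what belongs to resistance or to EGFR loss.

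AP-1 is a dimer of proteins with a basic region, which contacts DNA, and a leucine zipper, which joins the partners. JUN proteins pair with themselves or with FOS proteins, and FOS proteins need a JUN partner. Immediate early genes are transcribed within minutes of growth factor stimulation, without new protein synthesis, and many of their transcripts are short-lived. The kinase ERK, which EGFR activates, drives FOS and EGR1 through the factors ELK1 and SRF, and stress kinases act on JUN and ATF3.

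Promoter sequences are printed for DUSP1, which had the largest fold changes of the 10 genes in both comparisons, for EGR1, the 1 gene whose window held CArG boxes, and for JUN, the gene with the most probe sets. Of the 10 genes, 9 had a RefSeq promoter window of 300 bases (250 before to 50 after the annotated start, GRCh38.p14), and ATF3 had 2 windows. FOSL1 had no window, so its promoter was not searched. The 250 bases before the start are given 5′ to 3′ on the gene's strand. Capitals mark TGACNTCA in DUSP1 and JUN (N is any base, so that the cAMP response element is included), and CArG boxes (the SRF element) in EGR1. In DUSP1, capitals also mark the shorter TGACG on either strand, which TGACNTCA holds only where N is G.
DUSP1 (chr5:172771196-172771445, minus strand): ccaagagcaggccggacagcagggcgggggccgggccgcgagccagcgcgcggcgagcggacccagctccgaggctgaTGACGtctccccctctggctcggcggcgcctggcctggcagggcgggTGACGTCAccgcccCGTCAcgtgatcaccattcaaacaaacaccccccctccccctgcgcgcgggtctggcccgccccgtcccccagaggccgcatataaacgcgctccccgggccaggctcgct
EGR1 (chr5:138465229-138465478, plus strand): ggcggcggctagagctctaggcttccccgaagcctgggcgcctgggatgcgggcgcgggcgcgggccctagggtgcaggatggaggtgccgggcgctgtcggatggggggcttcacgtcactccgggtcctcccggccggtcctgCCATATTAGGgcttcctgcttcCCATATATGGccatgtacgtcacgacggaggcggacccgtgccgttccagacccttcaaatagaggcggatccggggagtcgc
JUN (chr1:58784048-58784297, minus strand): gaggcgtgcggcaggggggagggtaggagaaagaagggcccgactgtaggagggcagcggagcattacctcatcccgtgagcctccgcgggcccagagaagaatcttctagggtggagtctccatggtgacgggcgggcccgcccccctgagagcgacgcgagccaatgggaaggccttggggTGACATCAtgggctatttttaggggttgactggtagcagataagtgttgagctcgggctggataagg

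On both strands of the 300-base windows, TGACNTCA was found in 4 of the 9 genes (JUN, JUND, ATF3 and DUSP1), against 7.72% of all 35116 promoter windows. JUN and ATF3 carried the same 8 letters, TGACATCA, 67 and 123 bases before their starts. JUND and DUSP1 carried TGACGTCA, 200 and 125 bases before theirs. The shorter TGACG, which lies inside TGACGTCA, was present in 8 of the 9 genes, against 24.6% of all windows. Of the 9 genes searched, which leave out FOSL1, only FOSL2 held the AP-1 element TGANTCA, against 7.71% of all windows. Among these windows, that of EGR1 alone held CArG boxes, at 105 and 83 bases before its start (1.29% of all windows hold one). It alone held the EGR-type element GCGNGGGCG (9.43%). Bases farther upstream were not searched in FOS or any other gene, so elements there would be missed. The stretches around the matches in ATF3, JUND and FOSL2 are shown for comparison with JUN and DUSP1, with the match in capitals. These letters describe the sequence, and no binding was measured.
ATF3 (chr1:212565273-212565302, plus strand): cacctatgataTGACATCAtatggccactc
JUND (chr19:18281804-18281833, minus strand): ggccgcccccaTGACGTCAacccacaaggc
FOSL2 (chr2:28392851-28392879, plus strand): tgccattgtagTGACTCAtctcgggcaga

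Values are log2 levels, log2(intensity + 1), and groups were compared with limma over all 22215 probe sets other than array controls, called at an adjusted p under 0.05. The parental and ERC4 arrays had medians of 5.67 to 5.75 and the other 6 arrays 7.15 to 7.17, as sets normalized apart would have, so that levels are compared only within a set. EGFR itself, by its brightest probe set (201983_s_at), lay at 12.60 in ERC4 and 12.38 in parental. It was called higher in ERC4, by 0.21 on the log2 scale (limma adjusted p = 0.029). It lay at 12.25 in Esh9-1 and 13.55 in HCC827NT, a 2.46-fold decrease in Esh9-1 (limma adjusted p = 2.5e-09). All 10 epithelial markers lay above the array medians in ERC4, parental and HCC827NT cells and 8 did in Esh9-1. Their summed intensity was 8887 to 9265 in ERC4 and 20418 to 20611 in parental, and 11629 to 12146 in Esh9-1 and 62570 to 63684 in HCC827NT. Of 15 measured fibroblast, endothelial, leukocyte and erythroid markers, 2 to 4 lay above the medians of an array. Their summed intensity was 570 to 612 in ERC4 and 703 to 740 in parental, and 1525 to 1546 in Esh9-1 and 1526 to 1607 in HCC827NT, and none was listed at 0. Of the epithelial markers 1 was called higher (NKX2-1, 1.29-fold) and 9 lower in ERC4, led by MUC1, CDH1, EPCAM and KRT19 (6.86-fold to 6.02-fold). All 10 were lower in Esh9-1, led by CDH1 (77.6-fold), EPCAM (30.3-fold), KRT19 (23.2-fold) and MUC1 (9.69-fold), with CDH1 and MUC1 below the array medians in Esh9-1. Of the 15 other markers 1 was called higher and 8 lower in ERC4, and 1 higher and 2 lower in Esh9-1. Of all genes, each by its brightest probe set, 28.6% were called higher and 28.2% lower in ERC4. In Esh9-1 these shares were 24.9% and 24.3%. Of the 7405 probe sets with the lowest mean signal, 4.09% were called higher and 32% lower in ERC4. The fibroblast gene LUM was 1.44-fold higher in ERC4 and 5.92-fold higher in Esh9-1 (adjusted p = 1.5e-11), from dim signal in both control groups. CD79A, PDGFRB, COL3A1 and CD14 were lower by 1.82-fold to 1.39-fold in ERC4, and CD79A and CDH5 by 1.54-fold and 1.26-fold in Esh9-1. Hybridisation controls differed by -1.56 on the log2 scale in ERC4 against parental and by 0.55 in Esh9-1 against HCC827NT. The 3' minus 5' log2 signal of the ACTB control probe sets was higher by 0.87 in Esh9-1 than in HCC827NT and differed by -0.03 in ERC4 against parental. For GAPDH these differences were 0.35 in Esh9-1 and -0.15 in ERC4. The part of these differences in the results below was not tested.

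In ERC4 against parental cells, DUSP1, ATF3, FOSL1 and JUN transcripts were higher and JUNB and EGR1 transcripts lower, while FOS and FOSB were dim and not called. Of the 19 probe sets, 9 were called higher (25.8% of all probe sets were), 3 lower (28.3%) and 7 were not called. The 12 calls compare with 54.1% of all probe sets called in either direction. The arrays of the groups did not overlap in 12 of the 19, against 58.2% of all probe sets. The calls in either direction and the separations thus came near the background. By size, 2 of the 19 were called at 2-fold or more, against 5.37% of all probe sets. The median log2 fold change was 0.09 over the 19 probe sets and -0.06 over all. Calls went with brightness: of the 7405 probe sets with the highest mean signal, 49.8% were called higher in ERC4 and 17.6% lower, and of the 7405 with the lowest, 4.09% were called higher. Of the 8 member probe sets in the brightest group, 6 were called higher and 1 lower, and the part of brightness in the direction of the members' calls was not tested.

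In Esh9-1 against HCC827NT cells, DUSP1, JUN, ATF3, FOSL1 and JUNB transcripts were higher and JUND and EGR1 transcripts lower. Here 9 of the 19 probe sets were called higher (23.2% of all probe sets were), 6 lower (24.2%) and 4 were not called. The 15 calls compare with 47.4% of all probe sets called in either direction. The arrays of the groups did not overlap in 15 of the 19, against 58.8% of all probe sets. At 2-fold or more, 4 of the 19 were called, all of them higher (DUSP1 and 3 probe sets of JUN), against 8.80% of all probe sets in either direction. The median log2 fold change was 0.11 over the 19 probe sets and -0.03 over all.

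**Figure D1:**
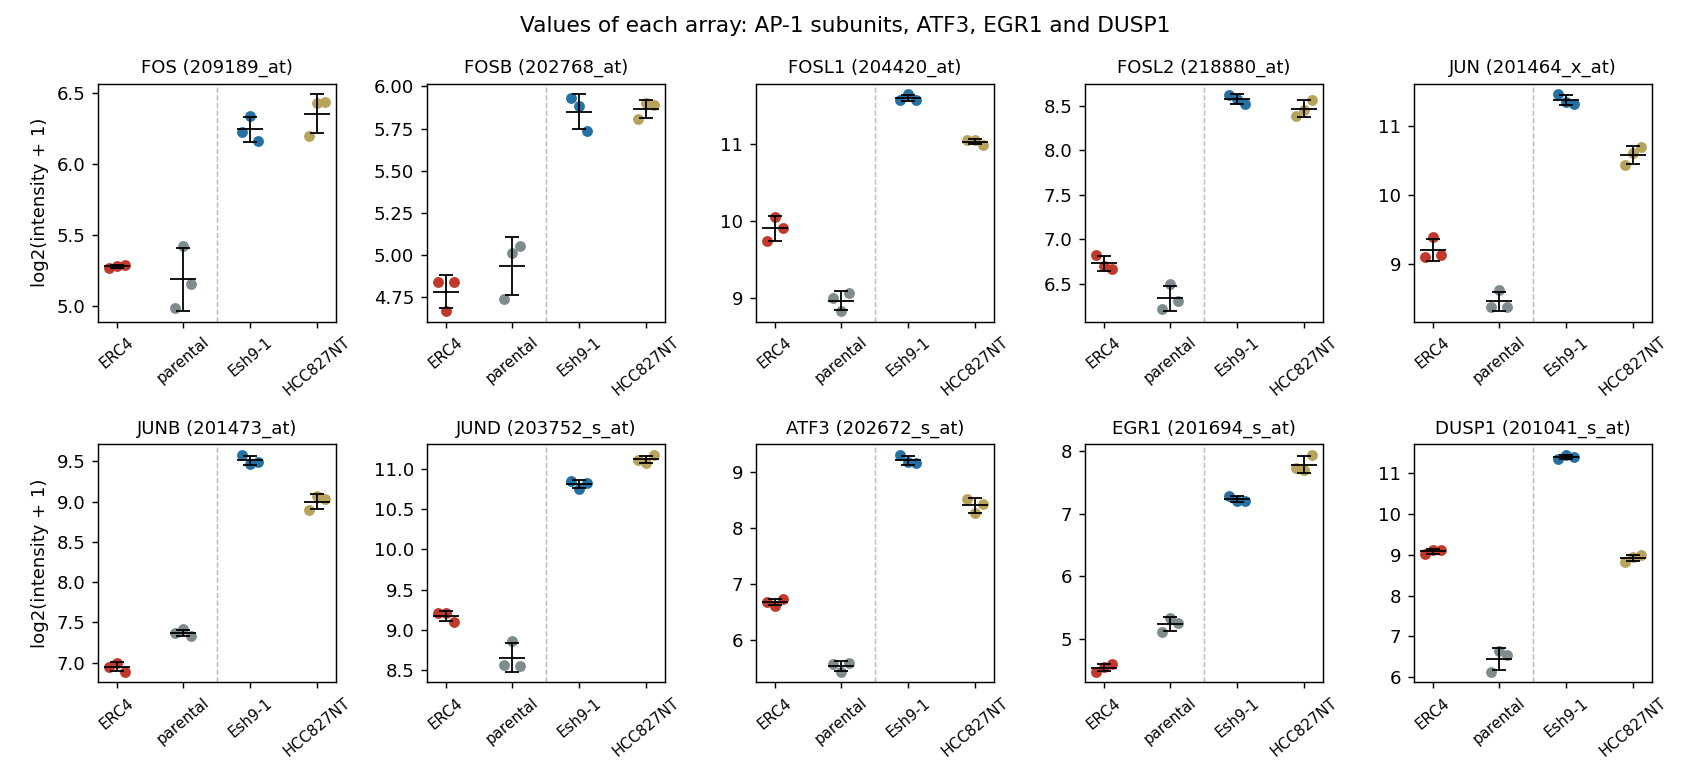
Log2 levels, log2(intensity + 1), of the brightest probe set of each of the 10 genes in every array (points), with group mean and SD (black, n = 3). The dashed line separates the sets of arrays, across which levels are not compared. DUSP1, ATF3, FOSL1 and JUN lay higher in ERC4 than in parental and in Esh9-1 than in HCC827NT with no overlap, EGR1 lay lower in both, and JUNB and JUND moved in opposite directions.

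DUSP1, a nuclear phosphatase that switches off the MAP kinases p38, JNK and ERK and is itself an immediate early gene, showed the widest differences. Probe set 201041_s_at read 9.02, 9.12 and 9.11 in ERC4, against 6.14, 6.65 and 6.54 in parental arrays. It read 11.34, 11.43 and 11.40 in Esh9-1, against 8.83, 8.95 and 8.99 in HCC827NT arrays. Every ERC4 array lay above every parental one, and every Esh9-1 array above every HCC827NT one. The increase was 6.24-fold in ERC4 (2.64 ± 0.11 on the log2 scale, SE; limma adjusted p = 1.5e-10). It was 5.54-fold in Esh9-1 (2.47 ± 0.11; adjusted p = 8.4e-11). The difference between these log2 fold changes was 0.17, with a 95% interval of -0.15 to 0.49, and was not called (adjusted p = 0.37).

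The second DUSP1 probe set, 201044_x_at, was called higher too, by less. It gave 6.30, 5.96 and 6.20 in ERC4 and 5.19, 5.68 and 5.95 in parental arrays, and the groups came close without overlapping. It gave 6.56, 6.76 and 6.74 in Esh9-1 and 5.88, 6.21 and 6.06 in HCC827NT arrays, all of them below the medians of their arrays. The log2 fold changes were 0.55 ± 0.16 in ERC4 (adjusted p = 0.0082; 0.34 without parental replicate 1, adjusted p = 0.035) and 0.63 ± 0.16 in Esh9-1 (adjusted p = 0.0033). With the mean of both probe sets standing for the gene, the log2 fold changes were 1.60 and 1.55, so that the fold size of DUSP1 rests on the choice of probe set and its direction does not.

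ATF3, a bZIP protein induced by stress that can pair with JUN proteins, was the other gene called at 2-fold or more in ERC4. Its probe set 202672_s_at gave 6.69, 6.62 and 6.74 in ERC4, against 5.59, 5.44 and 5.60 in parental arrays. It gave 9.30, 9.17 and 9.16 in Esh9-1, against 8.52, 8.26 and 8.44 in HCC827NT arrays. The groups did not overlap in either comparison, and the parental arrays alone lay below their array medians. ATF3 was 2.20-fold higher in ERC4 (1.14 ± 0.08; adjusted p = 4.3e-08) and 1.75-fold higher in Esh9-1 (0.80 ± 0.08; adjusted p = 9.7e-07). The log2 fold change was larger in ERC4 by 0.34 ± 0.11 (adjusted p = 0.026). That call ended with a pseudocount of 16 (0.16, adjusted p = 0.21) and without any 1 of 6 arrays: ERC4 replicate 3, parental replicate 2, Esh9-1 replicate 2 or 3, or HCC827NT replicate 1 or 3 (0.28 to 0.32, adjusted p = 0.056 to 0.07).

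FOSL1 encodes FRA1, a FOS protein without the strong activation domain of FOS whose gene responds to sustained ERK signalling. Probe set 204420_at gave 9.74, 10.05 and 9.90 in ERC4, against 9.00, 8.83 and 9.07 in parental arrays. It gave 11.57, 11.64 and 11.57 in Esh9-1, against 11.05, 11.04 and 10.99 in HCC827NT arrays. All arrays lay well above their medians, and the groups did not overlap. FOSL1 rose 1.91-fold in ERC4 (0.93 ± 0.09; adjusted p = 5.3e-07) and 1.48-fold in Esh9-1 (0.57 ± 0.09; adjusted p = 5.6e-05). The difference of 0.37 ± 0.12 between the comparisons was called (adjusted p = 0.021), but not after quantile normalization within each set (0.17, adjusted p = 0.26), without ERC4 replicate 2 (0.29, adjusted p = 0.058) or without parental replicate 2 (0.30, adjusted p = 0.051).

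FOS, the classical partner of JUN, and FOSB lay below the array medians in all 12 arrays. FOS (209189_at) gave 5.27, 5.28 and 5.29 in ERC4, against 4.99, 5.43 and 5.15 in parental arrays. It gave 6.22, 6.34 and 6.16 in Esh9-1, against 6.20, 6.43 and 6.43 in HCC827NT arrays, and the groups overlapped in both comparisons. Its log2 fold changes were 0.09 (95% interval -0.13 to 0.31, adjusted p = 0.47) in ERC4 and -0.11 (-0.33 to 0.11, adjusted p = 0.41) in Esh9-1.

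FOSB (202768_at) gave 4.84, 4.67 and 4.84 in ERC4, against 4.74, 5.01 and 5.05 in parental arrays, and 5.93, 5.88 and 5.73 in Esh9-1, against 5.81, 5.90 and 5.89 in HCC827NT arrays. The groups overlapped in both comparisons. Its log2 fold changes were -0.15 (95% interval -0.35 to 0.04, adjusted p = 0.17) and -0.02 (-0.21 to 0.18, adjusted p = 0.89). On dim probe sets such intervals bound the measured signal and not necessarily the transcript. Without parental replicate 1, FOSB was called lower in ERC4 (-0.25, adjusted p = 0.025).

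FOSL2, which encodes FRA2, differed between its 3 probe sets. The brightest, 218880_at, gave 6.83, 6.70 and 6.67 in ERC4, against 6.21, 6.49 and 6.30 in parental arrays, and was called higher by 0.40 ± 0.08 (adjusted p = 0.0011). In Esh9-1 its values of 8.63, 8.58 and 8.52 overlapped those of HCC827NT, 8.39, 8.45 and 8.57 (0.11 ± 0.08, adjusted p = 0.33). The 3 arrays of ERC4 thus stood clear of the parental ones here, and the Esh9-1 arrays did not stand clear of HCC827NT. Probe set 218881_s_at gave 7.47, 7.45 and 7.52 in Esh9-1, against 8.32, 8.11 and 8.06 in HCC827NT arrays, a decrease of -0.68 ± 0.08 (adjusted p = 5.2e-06). It gave 6.82, 6.68 and 6.60 in ERC4, against 6.82, 6.83 and 6.89 in parental arrays, and was not called there (-0.15 ± 0.08, adjusted p = 0.14), although after quantile normalization within each set it was called lower (-0.25, adjusted p = 0.018). Probe set 205409_at gave 6.24, 6.51 and 6.31 in ERC4, against 6.43, 6.21 and 6.31 in parental arrays, and 7.80, 7.64 and 7.66 in Esh9-1, against 7.66, 7.77 and 7.89 in HCC827NT arrays. It was called in neither comparison, at 0.04 ± 0.09 and -0.07 ± 0.09. The mean of the 3 probe sets gave 0.10 in ERC4 (adjusted p = 0.14) and -0.22 in Esh9-1 (adjusted p = 0.0038), so no single direction can be given for FOSL2.

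JUN encodes c-Jun, the most studied partner in AP-1 and a target of JNK. Its brightest probe set, 201464_x_at, gave 9.11, 9.39 and 9.13 in ERC4, against 8.38, 8.62 and 8.39 in parental arrays. It gave 11.45, 11.34 and 11.31 in Esh9-1, against 10.43, 10.61 and 10.69 in HCC827NT arrays. The groups did not overlap in either comparison. The increases were 1.68-fold in ERC4 (0.74 ± 0.10; adjusted p = 1.9e-05) and 1.73-fold in Esh9-1 (0.79 ± 0.10; adjusted p = 8.4e-06), and their difference was -0.04 (95% interval -0.34 to 0.25, adjusted p = 0.81).

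The other 3 JUN probe sets gave log2 fold changes of 1.03 to 1.33 in Esh9-1 and of 0.00 to 0.62 in ERC4. In Esh9-1, 201466_s_at was 2.52-fold higher (1.33 ± 0.09), 213281_at 2.51-fold (1.33 ± 0.14) and 201465_s_at 2.05-fold (1.03 ± 0.14), with adjusted p of 1.6e-05 or lower. Probe set 201466_s_at gave 9.66, 9.57 and 9.49 in Esh9-1, against 8.24, 8.16 and 8.33 in HCC827NT arrays, and 6.30, 6.39 and 6.17 in ERC4, against 5.82, 5.54 and 5.65 in parental arrays. Probe set 213281_at gave 8.43, 8.33 and 8.33 in Esh9-1, against 6.68, 7.28 and 7.14 in HCC827NT arrays, and 4.93, 5.27 and 5.18 in ERC4, against 4.84, 4.47 and 4.57 in parental arrays, where it was dim. Its HCC827NT mean lay at -0.13 against the array medians, so that its increase in Esh9-1 also starts from dim signal. Probe set 201465_s_at gave 9.76, 9.53 and 9.58 in Esh9-1, against 8.36, 8.76 and 8.64 in HCC827NT arrays. All Esh9-1 arrays lay above all HCC827NT arrays in each of these probe sets. In ERC4, 201466_s_at (0.62 ± 0.09; adjusted p = 3.5e-05) and 213281_at (0.50 ± 0.14; adjusted p = 0.0077; 0.33 with a pseudocount of 16, adjusted p = 0.026) were called higher. Probe set 201465_s_at, with 6.05, 6.69 and 6.34 in ERC4, against 6.39, 6.41 and 6.28 in parental arrays, was not called (0.00 ± 0.14, 95% interval -0.29 to 0.29). The ERC4 arrays spread on both sides of the parental ones there.

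For these 3 probe sets the log2 fold change was lower in ERC4 than in Esh9-1, by -1.03 ± 0.19 (201465_s_at), -0.71 ± 0.12 (201466_s_at) and -0.83 ± 0.20 (213281_at), each called (adjusted p = 0.0031 or lower). The mean of the 4 probe sets gave 0.47 in ERC4 and 1.12 in Esh9-1, and a called difference of -0.65 (adjusted p = 0.00093). The direction of JUN was thus the same in every called probe set, and whether its increase differed between the comparisons rested on the probe set. The ACTB control difference of 0.87 went with the Esh9-1 arrays, and its part in the spread between probe sets was not tested.

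JUNB, a JUN protein with weaker activating ability that can oppose c-Jun, moved in opposite directions. Probe set 201473_at gave 6.95, 7.0 and 6.89 in ERC4, against 7.36, 7.41 and 7.33 in parental arrays. It gave 9.58, 9.46 and 9.50 in Esh9-1, against 8.90, 9.06 and 9.04 in HCC827NT arrays. ERC4 lay wholly below parental, and Esh9-1 wholly above HCC827NT. JUNB fell by 0.42 ± 0.07 on the log2 scale in ERC4 (1.34-fold; adjusted p = 0.00014) and rose 1.43-fold in Esh9-1 (0.51 ± 0.07; adjusted p = 2e-05). The difference between these log2 fold changes, -0.93 ± 0.10, was called (adjusted p = 2.4e-06) and stayed called in all 23 alternatives that gave a value (-1.09 to -0.87).

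JUND, the JUN protein least dependent on stimulation, was lower in Esh9-1 in all 3 probe sets. The brightest, 203752_s_at, gave 10.85, 10.75 and 10.83 in Esh9-1, against 11.10, 11.08 and 11.17 in HCC827NT arrays (-0.31 ± 0.08; adjusted p = 0.0071). Probe set 203751_x_at gave 6.99, 7.18 and 6.90 in Esh9-1, against 7.89, 7.95 and 8.0 in HCC827NT arrays (-0.92 ± 0.09; adjusted p = 4.2e-07). Probe set 214326_x_at gave 6.99, 7.03 and 6.94 in Esh9-1, against 7.69, 7.86 and 7.88 in HCC827NT arrays (-0.82 ± 0.08; adjusted p = 1.1e-06). In all 3, no Esh9-1 array reached the HCC827NT arrays. The mean of the 3 probe sets gave -0.68. The Esh9-1 means of 203751_x_at and 214326_x_at lay at -0.15 and -0.18 against the array medians, so that the size of their decreases rests on dim signal. The ACTB control difference of 0.87 went with the same Esh9-1 arrays, and its part in these decreases was not tested.

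In ERC4 only 203752_s_at of JUND was called, with 9.21, 9.21 and 9.10 in ERC4, against 8.56, 8.86 and 8.55 in parental arrays (0.51 ± 0.08; adjusted p = 0.00013). Probe set 203751_x_at gave 6.78, 6.52 and 6.68 in ERC4, against 6.66, 6.71 and 6.60 in parental arrays (0.00 ± 0.09), and 214326_x_at gave 6.94, 6.69 and 6.70 in ERC4, against 6.87, 6.83 and 6.71 in parental arrays (-0.03 ± 0.08), with overlapping groups in both. After quantile normalization within each set the called value was 0.30 (adjusted p = 0.0057), and the mean of the 3 probe sets gave 0.16 (adjusted p = 0.051). The log2 fold change was higher in ERC4 than in Esh9-1 in all 3, by 0.92 ± 0.12 (203751_x_at), 0.82 ± 0.12 (203752_s_at) and 0.80 ± 0.12 (214326_x_at), each called (adjusted p = 6.9e-05 or lower).

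**Figure D2:**
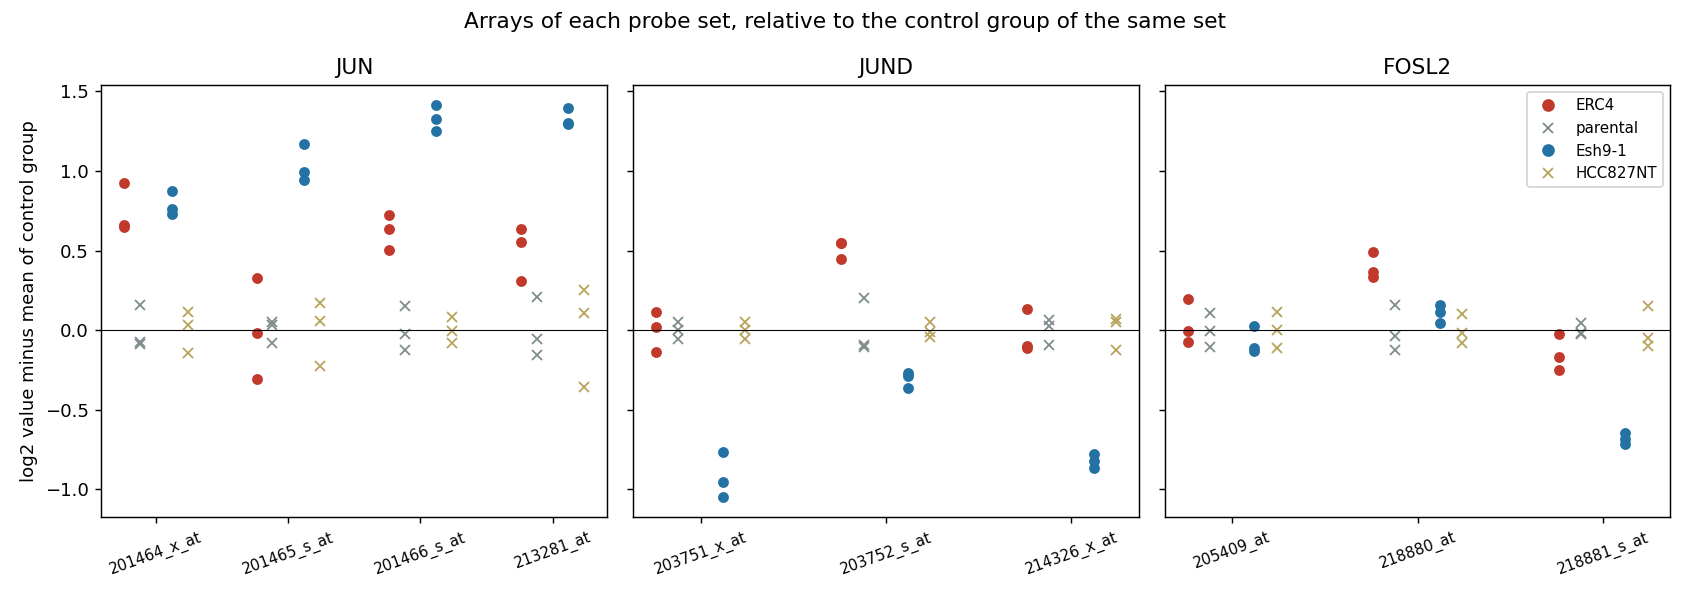
Log2 values of each array minus the mean of the control group of its set (parental for ERC4 and parental arrays, HCC827NT for Esh9-1 and HCC827NT arrays), for each probe set of JUN, JUND and FOSL2. Circles are ERC4 and Esh9-1 arrays, crosses the control arrays. JUN lay above the controls in Esh9-1 in all 4 probe sets, JUND below in all 3, and the FOSL2 probe sets did not share a direction.

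EGR1, a zinc finger factor induced by ERK, whose promoter with its CArG boxes is printed above, was lower in both comparisons. Probe set 201694_s_at gave 4.48, 4.55 and 4.59 in ERC4, against 5.11, 5.34 and 5.26 in parental arrays. It gave 7.29, 7.21 and 7.20 in Esh9-1, against 7.73, 7.70 and 7.94 in HCC827NT arrays. The groups did not overlap, but all ERC4 and parental values lay below their array medians, so that the fold size there rests on dim signal. The decreases were 1.62-fold in ERC4 (-0.70 ± 0.08; adjusted p = 6.6e-06), or -0.46 with a pseudocount of 16, and 1.47-fold in Esh9-1 (-0.56 ± 0.08; adjusted p = 4.7e-05). The second probe set, 201693_s_at, fell in Esh9-1, where it gave 6.61, 6.53 and 6.31, against 6.90, 7.20 and 7.28 in HCC827NT arrays (-0.65 ± 0.11; adjusted p = 0.0002). This probe set lay below the array medians in all ERC4, parental and Esh9-1 arrays. In ERC4 it gave 4.91, 4.87 and 4.94, against 5.04, 5.37 and 5.14 in parental arrays, and was called lower by a narrow margin (-0.28 ± 0.11; adjusted p = 0.046), a call that ended in 13 of 22 alternatives, the replicate block among them (adjusted p = 0.053). After quantile normalization within each set it was -0.17 (adjusted p = 0.24), and without parental replicate 2 it was -0.18 (adjusted p = 0.19). The 13 include leaving out any 1 of 7 arrays: the ERC4 replicates 1, 2 and 3, parental replicates 2 and 3, Esh9-1 replicate 2 and HCC827NT replicate 2.

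**Figure D3:**
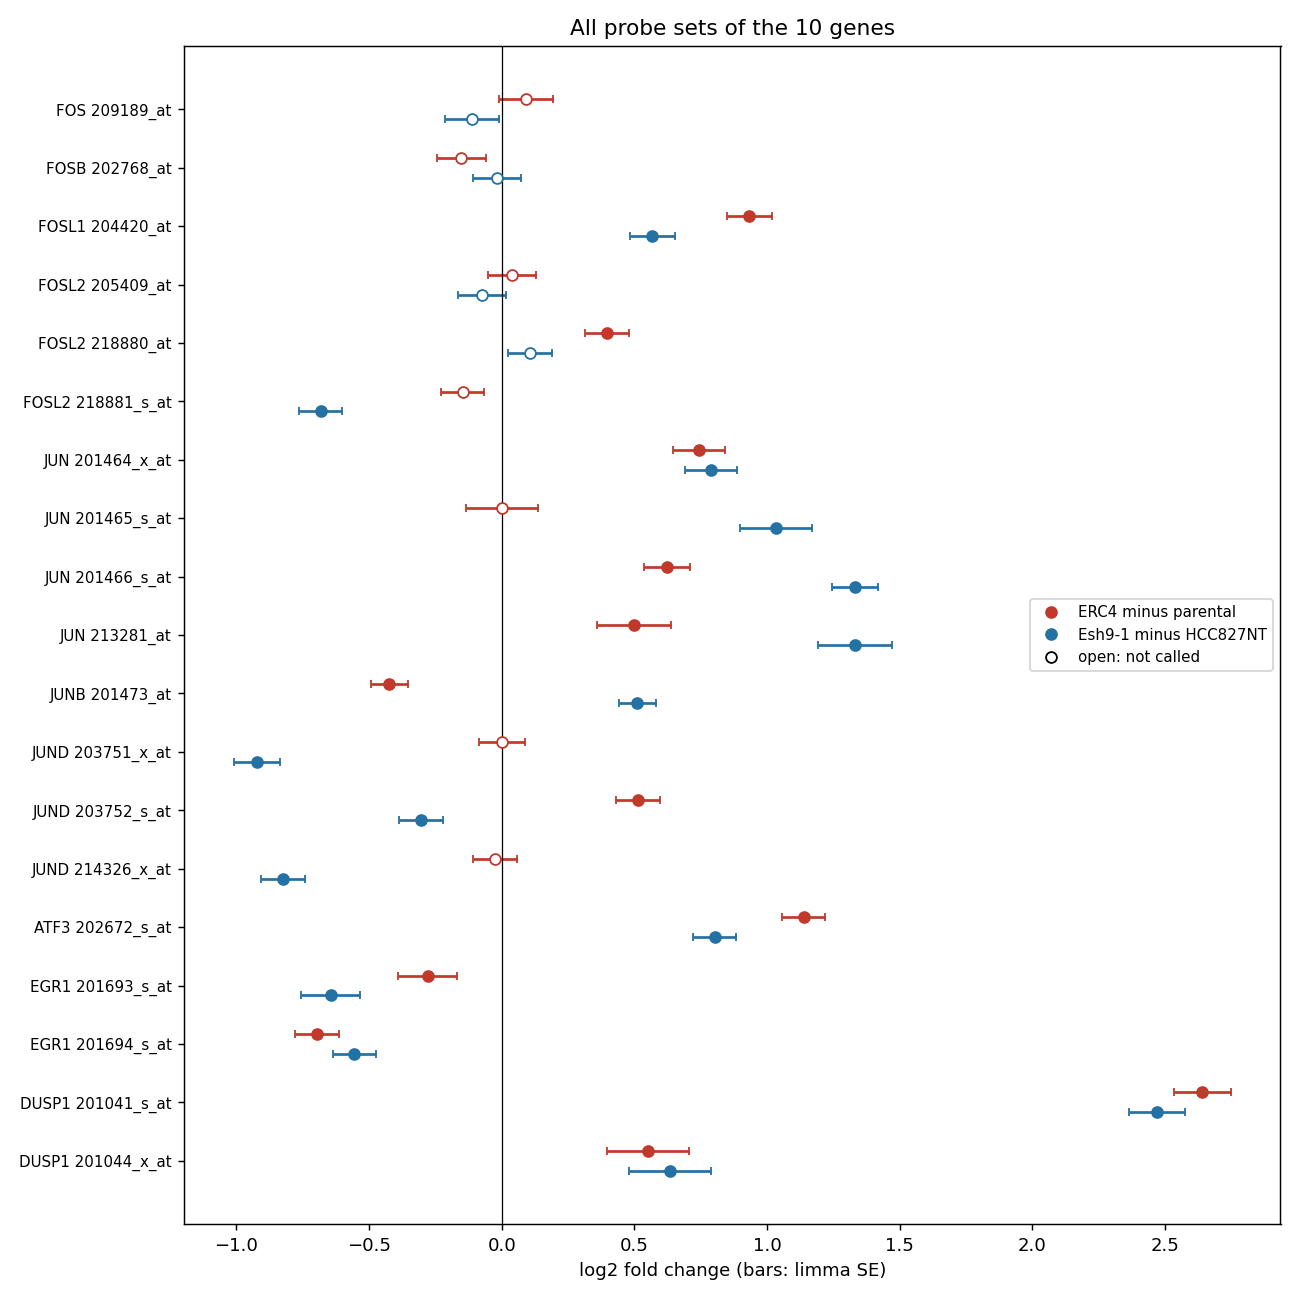
Log2 fold changes of all 19 probe sets with limma standard errors, ERC4 minus parental above Esh9-1 minus HCC827NT for each probe set (open circles were not called). Both DUSP1 probe sets, ATF3, FOSL1 and 3 of the 4 JUN probe sets lay to the right in both comparisons, and both EGR1 probe sets to the left.

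The comparisons share no arrays. Of the 9 probe sets called higher in ERC4, 7 were also called higher in Esh9-1, which is 77.8% of either list. They were both of DUSP1, 3 of JUN, and those of FOSL1 and ATF3, so they stand for 4 genes. Over all probe sets, 11.5% were called higher in both, which is 44.6% of those higher in ERC4 and 49.4% of those higher in Esh9-1. Both EGR1 probe sets were called lower in both comparisons (8.0% of all probe sets were). They make up 66.7% of the 3 called lower in ERC4 and 33.3% of the 6 called lower in Esh9-1, against 28.3% and 33.1% over all probe sets. JUNB and JUND (203752_s_at) were called in opposite directions, against 9.30% of all probe sets. The difference of effects was called in 10 of the 19 probe sets, against 47.4% of all. The log2 fold change was higher in ERC4 in 6 of them and lower in 4, against 23.9% and 23.5% of all probe sets.

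Other immediate early genes did not move as a group. Of 28 measured, 10 were called higher and 8 lower in ERC4 (28.6% and 28.2% of all genes, each by its brightest probe set), with a median log2 fold change of -0.01 against -0.04 over all genes. PLK2, a polo-like kinase induced by serum, rose 5.98-fold from a parental mean below the array medians, and CCN1, a secreted matricellular protein, rose 3.72-fold. PHLDA1 and the zinc finger factor KLF6 rose 2.10-fold and 2.03-fold. IER3 fell 2.03-fold, and PTGS2, the inducible cyclooxygenase, NR4A2, a nuclear receptor, and ARC fell 1.66-fold, 1.46-fold and 1.40-fold, the last 3 on dim probe sets.

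In Esh9-1, 12 of the 28 were called higher and 5 lower (24.9% and 24.3% of all genes), with a median of 0.14 against -0.02. CCN2, a matricellular protein related to CCN1, rose 20.5-fold, a size that rests on dim signal in HCC827NT, where its mean lay below the array medians. PLK2 rose 5.50-fold, CCN1 4.42-fold and the stress gene GADD45B 2.53-fold. NAB2, a corepressor that binds EGR1, fell 2.32-fold, the pseudokinase gene TRIB1 2.25-fold, PHLDA1 2.20-fold and IER2 1.68-fold. PHLDA1 thus changed in opposite directions, and its difference of effects was called (adjusted p = 9.8e-08), as was that of IER3 (adjusted p = 2.2e-09), which rose in Esh9-1 by 0.87.

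Of 9 other MAP kinase phosphatases measured, 2 were higher and 1 lower in ERC4 (28.6% and 28.2% of all genes were), and 1 was higher and 4 lower in Esh9-1 (24.9% and 24.3%). DUSP14 and DUSP4 rose 2.74-fold and 1.63-fold in ERC4, and DUSP2 fell 1.17-fold. In Esh9-1, DUSP6, an ERK phosphatase of the cytoplasm, fell 18.8-fold, DUSP5 1.34-fold, DUSP2 1.27-fold and DUSP7 1.24-fold, while DUSP10 rose 1.25-fold. DUSP6 was not called in ERC4 (0.05, adjusted p = 0.70).

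Of 14 other bZIP partners measured, 6 were higher and 4 lower in ERC4 (28.6% and 28.2% of all genes were), and 6 higher and 3 lower in Esh9-1 (24.9% and 24.3%). NFIL3, a bZIP repressor, rose 2.59-fold in ERC4 and 1.46-fold in Esh9-1, and CEBPB rose 1.32-fold and 1.57-fold. MAF rose 1.71-fold and 2.93-fold from dim signal in the control groups. BATF3, which pairs with JUN proteins, was 1.71-fold higher in ERC4 and 3.09-fold lower in Esh9-1 (difference of effects, adjusted p = 1.6e-09). BATF, ATF4, MAFG and CREB1 fell by 1.31-fold or less in ERC4. In Esh9-1, MAFF rose 1.60-fold, CREB1 fell 1.75-fold and ATF7 1.43-fold, the last on a dim probe set.

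Of 20 kinases and factors upstream of AP-1, 5 were higher and 6 lower in ERC4, near the 28.6% and 28.2% of all genes. In Esh9-1, 10 were higher and 6 lower, against 24.9% and 24.3% of all genes. None was called at 2-fold or more in ERC4 (4.51% of all genes were higher and 1.79% lower by that much), and 1 was in Esh9-1, RPS6KA5, a nuclear kinase downstream of ERK and p38, at 2.13-fold higher (4.89% of all genes) and 1.75-fold in ERC4. COPS5, MAPK9 (JNK2) and MAP2K4, which activates JNK, rose 1.55-fold, 1.53-fold and 1.47-fold in ERC4. MEF2D, RPS6KA2, MEF2C and ELK3 fell 1.70-fold to 1.44-fold. MEF2C was dim in both groups, with means of 3.96 in ERC4 and 4.59 in parental. The MEF2D mean lay narrowly below the array medians in ERC4. In Esh9-1, RPS6KA3, MEF2C and MAP2K1, which activates ERK, rose 1.78-fold, 1.71-fold and 1.51-fold, and RPS6KA2, RPS6KA1, MAPK8 (JNK1) and ELK4 fell 1.65-fold to 1.23-fold. The means of RPS6KA2 and MAPK8 lay below the array medians in Esh9-1.

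Genes known as AP-1 targets were split in ERC4 and mostly higher in Esh9-1. The list was chosen with earlier results of these data known, so its counts describe the listed genes and not AP-1 targets at large. Of 27 measured, 12 were higher and 9 lower in ERC4 (28.6% and 28.2% of all genes were). The median log2 fold change of the 27 was -0.04 there, the same as over all genes at 2 decimals. At 2-fold or more, 4 were higher and 3 lower, against 4.51% and 1.79% of all genes. In Esh9-1, 17 were higher, 11 of them by at least 2-fold, and 2 lower, with a median of 0.66 against -0.02 over all genes. Of all genes, 24.9% were higher there, 4.89% by at least 2-fold, and 24.3% were lower, 4.11% by at least 2-fold. VIM, the intermediate filament vimentin, HMOX1, heme oxygenase, and IL6 rose in both, by 8.86-fold, 3.67-fold and 2.74-fold in ERC4 and by 12.1-fold, 5.51-fold and 7.49-fold in Esh9-1. The parental means of HMOX1 and IL6, 5.72 and 5.44, lay below the array medians, so that their sizes in ERC4 start from dim signal. The chemokine gene CXCL8 was 2.56-fold lower in ERC4 and 8.22-fold higher in Esh9-1 (difference of effects, adjusted p = 3.7e-11). The collagenase MMP1 rose 2.13-fold in ERC4 on a dim probe set, and HMGA1 fell 1.95-fold. The squamous envelope genes SPRR1B and SPRR3 fell 11.9-fold and 2.57-fold in ERC4 and 29.7-fold and 37.6-fold in Esh9-1. Their means lay below the array medians in ERC4 and in Esh9-1, so that these sizes rest on dim signal there. The difference of effects was called for 19 of the 27, for 15 of them with the higher log2 fold change in Esh9-1 (23.6% of all genes) and for 4 with the higher one in ERC4 (25.3%). The summed epithelial marker intensity, given above, was lower in the same ERC4 and Esh9-1 arrays, and its part in these counts was not tested.

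**Figure D4:**
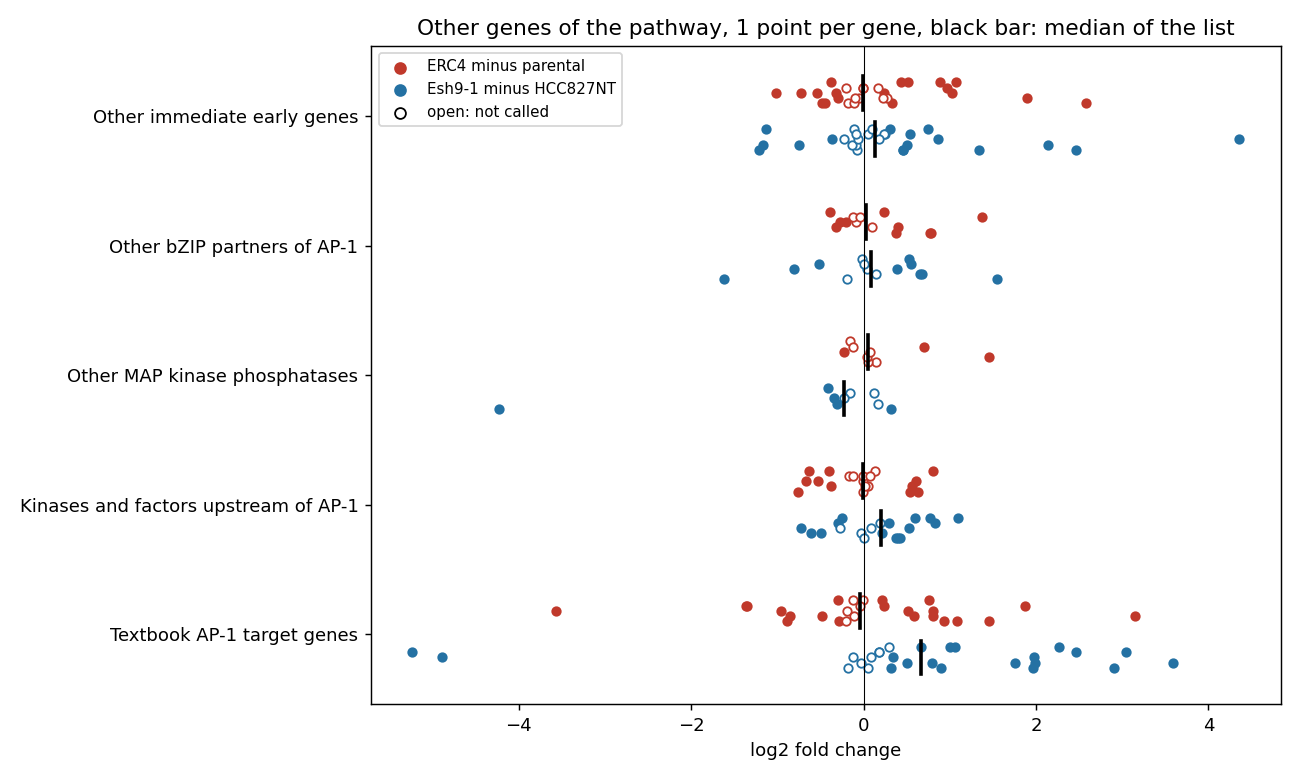
Log2 fold changes of the other genes of the pathway, 1 point for each gene by its brightest probe set, with ERC4 minus parental above Esh9-1 minus HCC827NT in each list (open circles were not called, black bars are list medians). Known AP-1 targets had a median of -0.04 in ERC4 and 0.66 in Esh9-1, and the other lists had medians between -0.22 and 0.20. The lists were chosen with earlier results of these data known.

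The genes most like FOSL1, DUSP1 and EGR1 were sought over the 12 arrays, after subtracting the mean of each set of 6, among 8598 genes that reached the overall median log2 value in at least 1 group mean. With 4 groups of arrays, these correlations mostly compare the pair of group differences and are given as descriptions. FOSL1 was followed most closely by EIF3J (Pearson's r = 0.99), PSMG1, MTR, TAF2 and CDC42EP3 (0.99 for each). DUSP1 was followed by MAP1LC3B, SKP1, ELOVL5, CDC23 and FGB (1.00 for each at 2 decimals), of which FGB, the fibrinogen beta chain, came nearest in size, with log2 fold changes of 2.40 in ERC4 and 2.26 in Esh9-1. EGR1 was followed by CST6 (0.99), ADORA1, NDUFB4, LGALS3BP and SLPI (0.98 for each), and CST6 had log2 fold changes of -3.14 in ERC4 and -2.29 in Esh9-1.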

How the data were processed

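The deposited values are intensities on a linear scale, made by the authors with RMA per the submitters' processing notes. The sources used here give neither the RMA version nor the arrays that went through it in 1 run. They were taken to log2(value + 1), and fold changes on this scale are too small for dim genes. Of 22277 probe sets, 19070 carried 1 symbol in the platform annotation, 1043 several and 2164 none, and 62 were array controls. Groups came from the sample titles. A single model of the 12 arrays, with 8 residual degrees of freedom, was fitted by limma 3.58.1 under R 4.3.3 and gave all fold changes, standard errors and two-sided p-values, Benjamini-Hochberg adjusted over 22215 probe sets. Precision is limited by having 3 arrays in each group. Spread was pooled over the 12 arrays, so the errors and p-values of 1 comparison also draw on the arrays of the other. With only the 6 arrays of each comparison, 12 and 15 member probe sets were still called. FOSL1 in ERC4 then had a limma adjusted p of 7e-05, against 5.3e-07 in the full model. Since no label says that replicates were separate cultures, the p-values reflect the spread among these arrays alone, and that spread may be technical.

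All member probe sets are named. Of each other list, up to 4 called genes in each direction are named, largest change first, by the probe set with the highest mean, as are the 5 genes most like FOSL1, DUSP1 and EGR1, and a few others where a count or a contrast turns on them. Members and lists were chosen with earlier results of these data known. In simulated data on 22215 probe sets, 71.2% of changes of 0.5 on the log2 scale, 100% of 1 and 100% of 2 were recovered for ERC4 minus parental, with 3.80% false among calls. For Esh9-1 minus HCC827NT these were 77.5%, 97.5%, 100% and 7.22%. The simulated data held 80 changes of 0.5, 80 of 1 and 40 of 2, a far smaller share of probe sets than was called in the real data. The rates need not hold for the real data. Replicate numbers did not pair the samples. Promoters and positions came from RefSeq (GRCh38.p14). Python 3.11.15 and matplotlib 3.10.9 were used for motifs and figures.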

Additional observations from a re-analysis of the deposited data

Results flagged for a closer look

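For 10 probe sets the log2 fold change in ERC4 minus parental differed from that in Esh9-1 minus HCC827NT by limma's test of the difference itself. It was lower in ERC4 for JUNB (201473_at, by -0.93) and for 3 probe sets of JUN (201465_s_at by -1.03, 201466_s_at by -0.71 and 213281_at by -0.83). It was higher in ERC4 for the 3 probe sets of JUND (203751_x_at by 0.92, 203752_s_at by 0.82 and 214326_x_at by 0.80), FOSL2 (218881_s_at by 0.54), FOSL1 (204420_at by 0.37) and ATF3 (202672_s_at by 0.34). For FOSL1 and ATF3 the call did not hold under every alternative tried, as given above. The comparisons come from separate sets of arrays.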

How the results depend on the processing

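Counts of called member probe sets stayed within 1.5 times under 10 other settings with 1 value per probe set (9 for the difference of effects): 11 to 12 in ERC4 minus parental, 15 in Esh9-1 minus HCC827NT and 8 to 12 for the difference. Leaving out each array gave 11 to 13, 15, and 9 to 11. With the replicate number as a block, 11, 15 and 10 member probe sets and 11770, 10371 and 10321 of all probe sets were called. Same-numbered arrays did not deviate together (correlations of 0.01 to 0.07 in ERC4 and parental, -0.14 to -0.03 in Esh9-1 and HCC827NT). The block ended the call of EGR1 201693_s_at in ERC4 and no other member's. Settings with 1 value per gene have fewer features: the brightest probe set called 6902, 5966 and 5936 of all genes and 7 (Esh9-1) and 4 (difference) of the 10 members, and averaging over probe sets called 7091, 6131 and 6174, and 6, 8 and 6 members. Averaging turned FOSL2 in Esh9-1 to -0.22. FOS in the difference of effects was called without parental replicate 2 alone (0.32, adjusted p = 0.045). The differences for FOSL2 218880_at and EGR1 201693_s_at, not called, were called under 6 and 7 alternatives. Calls higher made up 47.7% of all calls in ERC4, and 60.3% without dim probe sets, a filter that kept 17 of the 19 member probe sets and left out FOS and FOSB. For the difference of effects the share was 50.4%, 58.7% after median centring and 57.5% without dim probe sets.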
